A study of Bos taurus with 10 samples.

Results

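The inhibin, activin, follistatin and anti-Müllerian hormone genes were followed in bovine oocytes that had matured in culture and in oocytes that had not. The genes were *INHA* (the α subunit of inhibins), *INHBA* and *INHBB* (the βA and βB subunits shared by inhibins and activins), *FST* (follistatin) and *AMH* (anti-Müllerian hormone). Every probe set whose only annotated gene symbol was one of these 5 was taken, which gave 4 of the 24016 probe sets tested, 1 each for *INHA*, *INHBA*, *FST* and *AMH*, or 4 of the 9155 genes named on the array. *INHBB* matched no probe set by this rule and was not analysed here.

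Inhibins join the α subunit to a β subunit, whereas activins join a pair of β subunits. Activins signal through type II and type I serine/threonine kinase receptors to SMAD2 and SMAD3, inhibins oppose them at the type II receptor, and follistatin binds activins and keeps them from their receptors. AMH signals through its own type II receptor to the BMP-type SMADs. In the ovary, granulosa cells are the main source of all these proteins, and cumulus cells, the granulosa cells that surround the oocyte, make them too.

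The IVM group consisted of 5 pools of oocytes that had spent 24 h inside their cumulus at 39°C in TCM-199 with epidermal growth factor (10 ng/ml) and fetal calf serum (10%) before they were stripped of cumulus. The immature group consisted of 5 pools stripped at 0 h. Both groups came from follicles of 3 to 8 mm of slaughtered cows, with no allele or agent other than the medium to tell them apart, and oocytes with visible remains of cumulus were left out. The 5 pools of a group were 5 days of ovary collection, so the spread between arrays includes that between days. By the methods of the study, the oocytes collected were split in equal parts between stripping at 0 h and culture. The labels do not say that equal replicate numbers of the groups share a day. From each pool, 100 ng of RNA passed through 2 rounds of amplification to 1 Affymetrix bovine array, and each value is the log2 summary of the probes of a probe set after quantile normalization by the authors. A difference of 1 is therefore a doubling of this summary, which need not be a doubling of RNA. The height of a probe set cannot be set against that of another gene.

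The arrays had medians of 7.04 to 7.10. All 5 oocyte genes with a probe set varied (*ZP2*, *ZP3*, *ZP4*, *KPNA7* and *KIT*), with a mean level of 11.18 to 12.15 on IVM arrays and 12.86 to 13.26 on immature arrays. Single genes of the 5 differed in direction, as given below. Hybridization controls, which are added after amplification, were at 9.38 to 9.73 on immature replicates 1, 2 and 3 and at 10.75 to 11.22 on the other 7 arrays. The poly-A control transcripts, added to the RNA, were 0.94 higher on IVM than on immature arrays. Fits centred on the poly-A controls and fits with immature replicates 4 and 5 only are given at the end. The count of probe sets called moved with both, to 18826 and 4 from 1389. Whether what moved the controls also moved the results below was not tested.

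*INHA* was measured in every pool. Its log2 values in IVM oocytes were 9.30, 10.69, 10.44, 11.91 and 8.76 on replicates 1 to 5. In immature oocytes they were 11.56, 7.99, 12.59, 12.53 and 10.98. Every IVM value lay inside the immature range, the lowest of the 10 values was that of immature replicate 2, and 4 of 5 IVM arrays were below the immature median. *INHA* averaged 10.22 ± 1.24 in IVM oocytes and 11.13 ± 1.88 in immature oocytes (SD, n = 5 each). The difference of -0.91 (SE 1.0, 95% interval -3.21 to 1.39) was smaller than the spread within either group and did not pass (limma, adjusted p = 0.576). In such pools, fewer cells of a type and less RNA per cell cannot be told apart.

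*INHBA*, whose product is the subunit of activin A and of inhibin A, had the widest range. IVM oocytes had 9.55, 10.78, 10.47, 12.83 and 8.49. Immature oocytes had 11.00, 7.27, 13.52, 12.58 and 10.39. Both the highest and the lowest of the 10 values were immature arrays, replicates 3 and 2, so that every IVM value lay inside the immature range. The means were 10.43 ± 1.61 in IVM oocytes and 10.95 ± 2.41 in immature oocytes (SD, n = 5 each). Their difference was -0.53 (SE 1.29, 95% interval -3.49 to 2.44; limma, adjusted p = 0.848), and without immature replicate 3 it was 0.12, in the other direction.

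*FST*, which encodes the activin-binding protein follistatin, had the largest difference in group means of the 4 genes. IVM oocytes had 8.37, 9.91, 9.69, 11.40 and 8.10. Immature oocytes had 11.67, 7.65, 13.08, 13.01 and 11.02. All 5 IVM arrays were below the immature median of 11.67, yet immature replicate 2 was below all 5 IVM arrays. *FST* averaged 9.49 ± 1.33 in IVM oocytes and 11.29 ± 2.21 in immature oocytes (SD, n = 5 each). The difference of -1.79 (SE 1.15, 95% interval -4.43 to 0.84) did not pass (limma, adjusted p = 0.307). Without immature replicate 2 it was -2.70, with an adjusted p of 0.0429 from limma, which is still above the threshold of 0.0001 taken from the methods of the study.

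*AMH*, a hormone of the granulosa cells of growing follicles, had the smallest difference and the smallest spread. IVM oocytes had 7.19, 7.22, 7.72, 8.11 and 6.95. Immature oocytes had 7.73, 6.69, 8.51, 8.68 and 7.48. Here too the groups overlapped, and the lowest array was immature replicate 2. The values of *AMH* lay around the array medians of 7.04 to 7.10, and whether a low signal limited its difference and spread was not tested. The means were 7.44 ± 0.47 in IVM oocytes and 7.82 ± 0.81 in immature oocytes (SD, n = 5 each). The difference was -0.38 (SE 0.41, 95% interval -1.33 to 0.57; limma, adjusted p = 0.572).

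**Figure D1:**
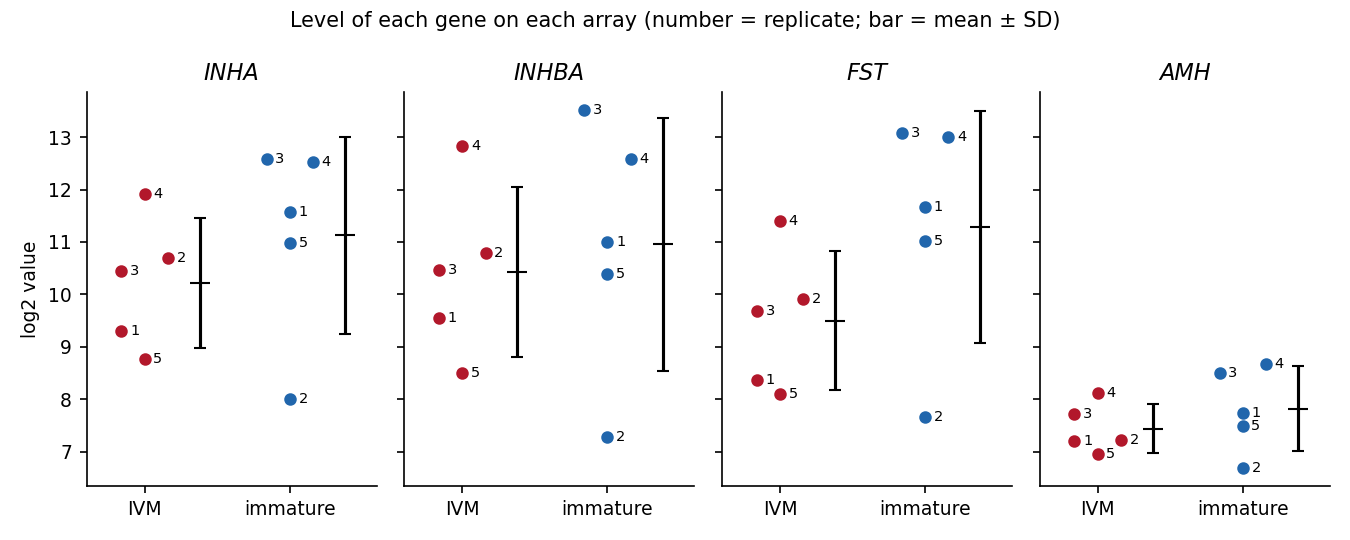
Log2 value (vertical axis) of *INHA*, *INHBA*, *FST* and *AMH* on each of the 5 IVM arrays (red, left in each panel) and the 5 immature arrays (blue, right), with the replicate number beside each point and the mean ± SD in black. In all 4 panels the groups overlap, IVM replicate 4 is the highest IVM array and immature replicate 2 is the lowest array.

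None of the 4 genes passed a test of the difference between the groups. With limma, 0 of 4 passed an adjusted p under 0.0001, where 5.78% of all 24016 probe sets did, and 0 of 4 passed 0.05, where 30.5% did. All 4 genes were among the 9460 probe sets that varied, that is, whose 10 values spanned at least 0.01. Of those 9460, 14.5% passed 0.0001 and 65.7% passed 0.05. At an unadjusted p under 0.05 the count was also 0 of 4, where 39.0% of all probe sets passed. The two-sided exact permutation test over the arrays, whose smallest possible p is 0.00794, gave p = 0.381 for *INHA*, 0.698 for *INHBA*, 0.175 for *FST* and 0.357 for *AMH* (n = 5 each). The groups did not overlap for 0 of 4 genes, against 24.2% of all probe sets and 56.3% of the 9460 probe sets that varied. The 4 differences ran from -1.79 to -0.38, beside a median difference of 0.00 over all probe sets and of 0.18 over those that varied. The intervals are wide, from 1.91 log2 units for *AMH* to 5.92 for *INHBA*, and do not show that the levels were alike.

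The spread between pools was the main feature of these genes, but it was not particular to them. From the lowest to the highest immature pool, the summarised value of *INHBA* spanned 76.1-fold, of *FST* 43.0-fold, of *INHA* 24.1-fold and of *AMH* 3.96-fold. The corresponding spans of the IVM pools were 20.3-fold, 9.80-fold, 8.89-fold and 2.24-fold. Ordered by SD among immature arrays, *INHBA* stood 1st, *FST* 3rd, *INHA* 15th and *AMH* 313th of the 9460 probe sets that varied. Among IVM arrays they stood 24th, 130th, 194th and 2495th. The median SD of the 9460 probe sets was 0.311 among IVM arrays and 0.187 among immature arrays. Some of the granulosa and cumulus markers followed below spread as much. *GJA1* had an SD of 1.92 among immature arrays, and *TNFAIP6* and *PTX3* had 1.93 and 1.80 among IVM arrays. Others did not, such as *CYP11A1*, with 0.19 among IVM arrays and 0.21 among immature arrays.

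Immature replicate 2 carried much of the immature spread. Without it the immature SD was 1.44 for *INHBA*, 1.02 for *FST*, 0.78 for *INHA* and 0.58 for *AMH*. Without IVM replicate 4, the highest of its group, the IVM SD was 1.03 for *INHBA*, 0.91 for *FST*, 0.92 for *INHA* and 0.32 for *AMH*. Whether the spread itself differed between the groups was not tested.

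The 4 genes ranked the pools in nearly the same order. From high to low, *INHA*, *INHBA* and *FST* all placed the IVM replicates as 4, 2, 3, 1 and 5, and the immature replicates as 3, 4, 1, 5 and 2. *AMH* differed only in exchanging IVM replicates 2 and 3 and immature replicates 3 and 4. All 4 genes thus had the highest IVM value in replicate 4, the lowest IVM value in replicate 5, the lowest immature value in replicate 2 and the highest immature value in replicate 3 or 4. The same set of extremes was found in 11.7% of the 9460 probe sets that varied (1110). Of these arrays, immature replicates 2 and 3 had the low hybridization controls and the others did not.

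Markers of follicular cells were mixed in which arrays were high and low. Of 19 granulosa and cumulus markers, 18 had a probe set and 12 varied, and 4 of the 12 (*GJA1*, *SERPINE2*, *HSD3B1* and *VCAN*) had the same set of extremes (33.3%). By the brightest probe set of each gene, immature replicate 2 was the lowest immature array for 7 of the 12. It was the highest for 4, *HAS2*, *PTGS2*, *PTX3* and *KITLG*. This depended on the probe set, since fainter ones of *HAS2*, *PTGS2* and *TNFAIP6* were lowest on immature replicate 2 (6.66, 6.04 and 5.68). A further probe set of *HAS2* was neither highest nor lowest there. Connexin 43 (*GJA1*), the gap junction protein that joins cumulus cells, had 10.49, 11.38, 11.25, 12.89 and 9.45 in IVM oocytes. It had 10.25, 8.11, 12.42, 12.92 and 10.48 in immature oocytes. The highest and lowest IVM pools and the lowest immature pool were those of *INHA*, and the difference between the groups was 0.26 (limma, adjusted p = 0.951). The serpin gene *SERPINE2* had 10.53 to 13.59 in IVM oocytes, 9.95 to 12.99 in immature oocytes and a difference of 0.14 (limma, adjusted p = 0.992), whereas *VCAN*, a proteoglycan of the cumulus matrix, had a difference of 3.96 (limma, adjusted p = 0.0118). Of the 4 theca and fibroblast markers that varied, 2 had the set of extremes (50.0%). All 4 were highest in IVM replicate 4 and lowest in IVM replicate 5, as were 37.1% and 23.0% of the probe sets that varied. None of the 5 oocyte genes had the set. Replicate 4 was the lowest IVM array for 4 of the 5, against 37.4% of the probe sets that varied. Immature replicate 2 was the highest immature array for 3 of the 5, against 38.1%. The oocyte genes did not share a direction. *ZP3*, a zona pellucida protein, fell by 3.78 on the log2 scale in IVM oocytes (limma, adjusted p = 6.49e-05). *ZP4* and *ZP2* had -3.15 and -0.66 (limma, adjusted p = 4.95e-04 and 0.00267). *KPNA7* had 0.37 and *KIT* 0.17 (limma, adjusted p = 0.00575 and 0.523). Fainter probe sets of *KIT* that varied had 1.29 and 1.55 (limma, adjusted p = 0.00200 and 0.00160).

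The granulosa and cumulus markers did not share a direction between the groups. At an adjusted p under 0.05, 5 of the 12 were higher and 2 lower in IVM oocytes, and the median difference was 0.22. The mean level of the 12 granulosa and cumulus markers was 8.83 to 10.67 on IVM arrays and 7.27 to 8.57 on immature arrays, and their summed log2 level 105.9 to 128.1 on IVM arrays and 87.3 to 102.9 on immature arrays. Most of this gap came from 3 genes of the cumulus matrix, *TNFAIP6*, *PTX3* (6.38; limma, adjusted p = 4.80e-04) and *VCAN*. Without these 3, a choice made after the values were seen, the mean level of the other 9 was 8.16 to 9.15 on IVM arrays and 7.93 to 8.97 on immature arrays. At the threshold, 1 of the 12 rose, *TNFAIP6*, whose product cross-links the hyaluronan of the expanding cumulus (10.86; limma, adjusted p = 7.63e-05). This probe set had 3.27 to 5.95 on immature arrays, below the array medians of 7.04 to 7.10. A second probe set of *TNFAIP6* had a smaller difference of 2.71 and did not pass (limma, adjusted p = 0.00110). At the threshold 1 fell, *KITLG*, the ligand of the oocyte receptor KIT (-0.66; limma, adjusted p = 4.54e-05). Without single arrays the adjusted p from limma was 8.57e-05 to 4.60e-04 for *TNFAIP6*, 5.03e-05 to 2.87e-04 for *KITLG* and 1.82e-05 to 3.96e-04 for *ZP3*, and with arrays of equal number as a block it was 0.00189, 0.00359 and 0.00234. Aromatase (*CYP19A1*), at 6.10 to 6.37 in IVM oocytes and 6.71 to 8.45 in immature oocytes, had a difference of -1.38 (limma, adjusted p = 0.00656). *FOXL2*, *LHCGR*, *NR5A2*, *AREG* and *CD44*, and the main probe set of *NR5A1*, did not vary over the arrays, and *EREG* had no probe set. Of the theca and fibroblast markers 4 of 9 varied, with a mean level of 7.45 to 9.68 on IVM arrays and 5.78 to 6.58 on immature arrays, whereas *CYP17A1* did not vary. None of the 6 blood and immune markers with a probe set varied, and of 5 endothelial markers only the angiopoietin receptor *TEK* did. The part of other cell types in the values of the 4 genes was not tested.

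**Figure D2:**
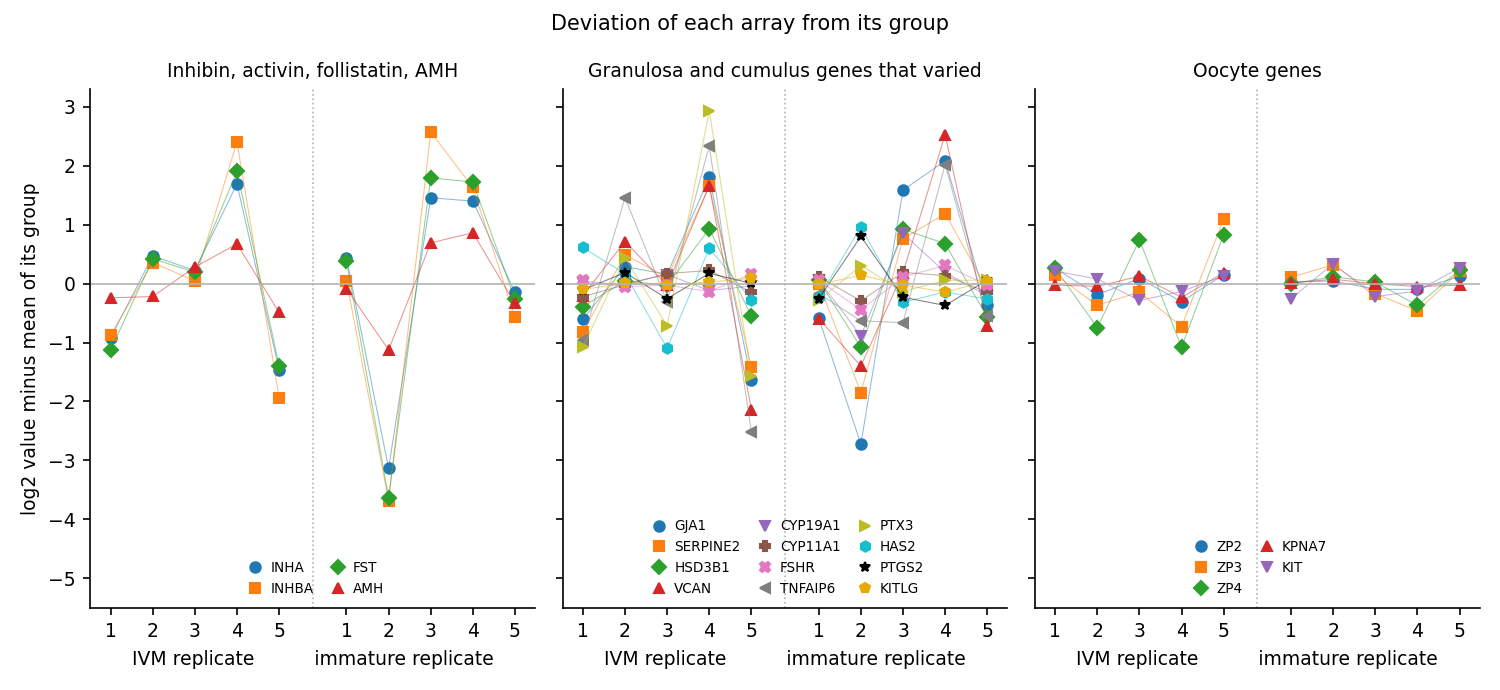
Log2 value of each array minus the mean of its group (vertical axis) for the 4 genes (left), the 12 granulosa and cumulus markers that varied (middle), and the 5 oocyte genes (right), with IVM replicates left of immature replicates. The thin lines only tie the points of a gene together. *INHA*, *INHBA* and *FST* are more than 3 below their group mean on immature replicate 2. There 7 of the 12 markers, each shown by its brightest probe set, are at their lowest and 4 at their highest immature value.

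Since the pools ranked alike for all 4 genes, the genes were also compared with each other inside each array. This comparison was chosen after the values had been seen. Probe sets differ in brightness, so the level of such a difference has no meaning of its own, but its shift between groups shows unequal change of the pair. It does not show which gene of the pair changed, and what a pair shares is removed only where both genes move by equal steps from pool to pool. Over the 6 pairs, exact permutation tests were adjusted by Benjamini-Hochberg, and the 95% intervals came from the pooled SD of the groups.

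*FST* was lower relative to *INHA* in IVM oocytes. *FST* minus *INHA* was -0.93, -0.77, -0.75, -0.51 and -0.66 on IVM arrays 1 to 5. It was 0.11, -0.34, 0.49, 0.48 and 0.04 on immature arrays. The immature values kept the order of the pools, replicates 3, 4, 1, 5 and 2 from high to low, so the shared level was not fully removed. The groups did not overlap, with means of -0.73 ± 0.15 in IVM oocytes and 0.16 ± 0.35 in immature oocytes (SD, n = 5 each). How often the groups do not overlap for other pairs of genes on the array was not counted. Of single probe sets that varied, 56.3% did not overlap. The shift was -0.88 (SE 0.17, 95% interval -1.27 to -0.49), with an exact permutation p of 0.00794, the smallest these arrays allow, and 0.0476 after adjustment over the 6 pairs. Leaving out each array in turn gave shifts of -1.01 to -0.80. In the pools lowest in *INHA*, IVM replicate 5 and immature replicate 2, *FST* minus *INHA* was -0.66 and -0.34, closer together than the group means.

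*FST* was also lower relative to *INHBA*. *FST* minus *INHBA* was -1.19, -0.87, -0.79, -1.44 and -0.39 on IVM arrays. It was 0.67, 0.39, -0.44, 0.43 and 0.63 on immature arrays. Only immature replicate 3 reached into the IVM range. The means were -0.93 ± 0.40 in IVM oocytes and 0.34 ± 0.45 in immature oocytes, a shift of -1.27 (SE 0.27, 95% interval -1.89 to -0.65, exact permutation p = 0.0159, 0.0476 after adjustment). If arrays of equal number are taken as pools of 1 day, the smallest p that 5 paired differences allow is 0.0625 by the exact permutation test, and both shifts were at it. With immature replicates 4 and 5 alone, whose hybridization controls were at the IVM level, the shifts were -0.99 against *INHA* and -1.46 against *INHBA*, both with an exact permutation p of 0.0952, again the smallest possible.

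The other 4 pairs did not pass. *FST* minus *AMH* shifted by -1.41 (95% interval -3.20 to 0.37, exact permutation p = 0.103, adjusted 0.206). Between the inhibin subunits, *INHBA* minus *INHA* shifted by 0.39 (95% interval -0.46 to 1.23, exact permutation p = 0.333). *INHA* minus *AMH* shifted by -0.53 (-2.0 to 0.94) and *INHBA* minus *AMH* by -0.14 (-2.25 to 1.96), with exact permutation p = 0.405 and 0.881. Single arrays moved 3 of these pairs. Without immature replicate 2, *FST* minus *AMH* shifted by -2.04 (exact permutation p = 0.0159, the smallest possible, not adjusted) and *INHA* minus *AMH* by -1.03 (exact permutation p = 0.0317). Without immature replicate 3, *INHBA* minus *INHA* shifted by 0.66 (exact permutation p = 0.0476). *AMH* spanned far less than the others on the log2 scale, so that pairs with it kept most of the spread between pools.

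**Figure D3:**
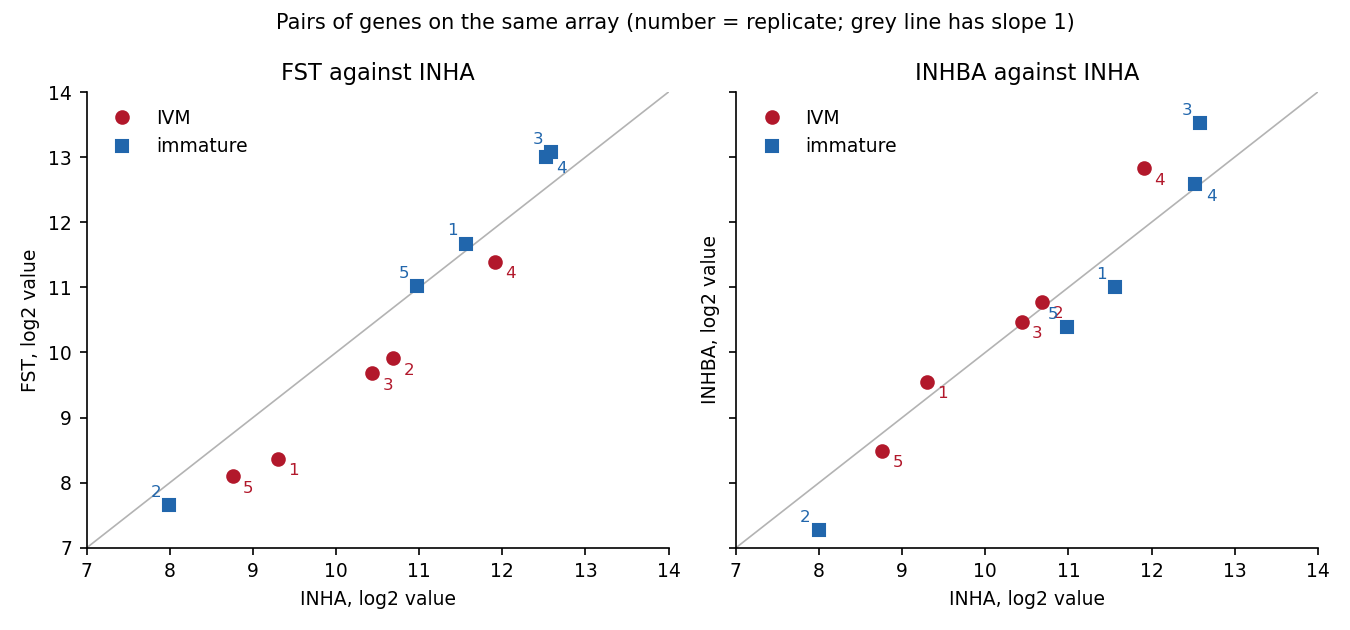
Log2 value of *FST* (left) and *INHBA* (right) against that of *INHA* on the same array, with IVM arrays as red circles and immature arrays as blue squares, numbered by replicate, and a grey line of slope 1. In the left panel the 5 IVM arrays lie below the 5 immature arrays relative to the line, by 0.88 on average, while in the right panel the groups are mixed.

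**Figure D4:**
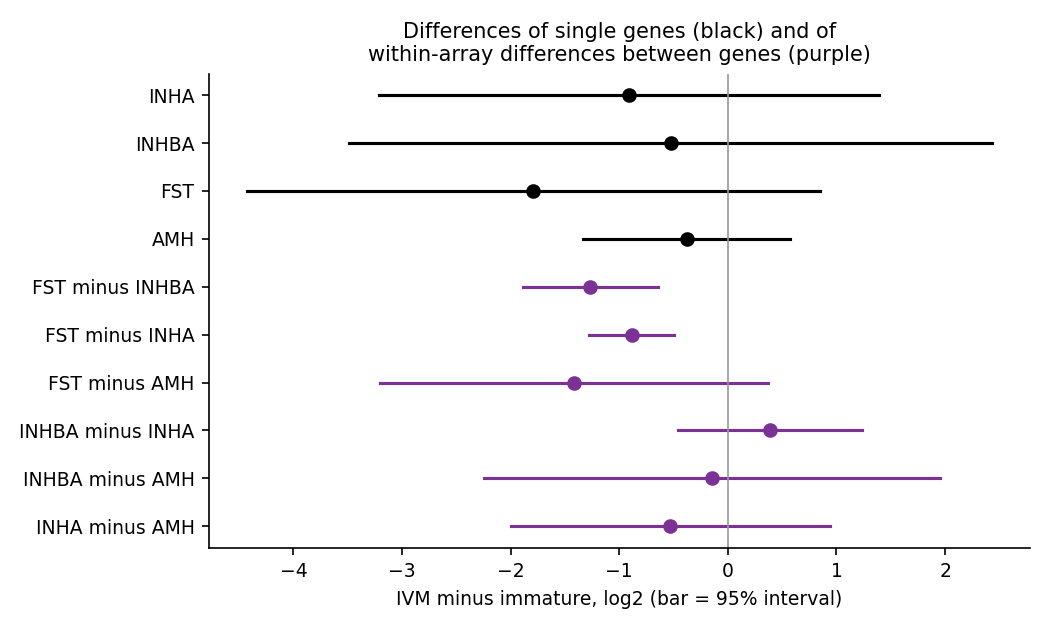
Difference of IVM minus immature oocytes on the log2 scale (horizontal axis) with its 95% interval for the 4 genes (black) and for the 6 within-array differences between genes (purple). The intervals of all 4 single genes include 0, and those of *FST* minus *INHBA* and *FST* minus *INHA* lie below 0.

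Likeness of profile was measured as the root mean square difference over the 10 arrays between log2 values centred on their own mean, among 5121 named genes that varied. *INHA* was nearest to *CCND2*, a cyclin of the G1 phase (0.321), then to *CRISPLD2*, a secreted protein (0.469), *FST* (0.503), *INHBA* (0.554) and *PGK1*, a glycolytic kinase (0.590). *INHBA* was nearest to *INHA*, then to *CCND2* (0.662), *GJA1* (0.679), *PGK1* (0.684) and *FST* (0.740). *FST* was nearest to *VIM*, the intermediate filament protein vimentin (0.436), then to *INHA*, the pseudokinase gene *TRIB2* (0.654), the immediate early gene *EGR1* (0.656) and *PTGR1*, a prostaglandin reductase (0.698). *INHA*, *INHBA* and *FST* were thus each among the 5 nearest genes of both others, except that *INHBA* was not among those of *FST*. Between the groups, *VIM* had a difference of -2.51, *TRIB2* of -2.64, *EGR1* of -2.25 and *PTGR1* of -1.76, none of which passed (limma, adjusted p = 0.128, 0.126, 0.0681 and 0.199).

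*CCND2* followed *INHA* from pool to pool. *CCND2* had 8.20, 9.28, 9.09, 10.69 and 7.17 on IVM arrays. It had 9.55, 7.04, 10.66, 11.29 and 9.54 on immature arrays. Its difference between the groups, which is part of the measure of likeness, was -0.73 (limma, adjusted p = 0.647). *VIM* in turn followed *FST*, with 8.82, 10.34, 10.33, 11.49 and 7.99 on IVM arrays. It had 12.69, 9.01, 13.75, 14.09 and 12.00 on immature arrays, where replicate 2 was again the lowest.

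*AMH* was nearest to *HSD3B1*, an enzyme of progesterone synthesis (0.219), *MEX3C*, an RNA-binding ubiquitin ligase (0.241), *PRXL2B* (0.251), *MARVELD1* (0.254) and *ANXA4*, a calcium-dependent membrane-binding protein (0.263). *HSD3B1* had 6.88, 7.32, 7.24, 8.20 and 6.72 on IVM arrays. It had 7.86, 6.72, 8.73, 8.48 and 7.24 on immature arrays, with a difference of -0.53 (limma, adjusted p = 0.461). The root mean square favours genes of like span, and *INHA*, *INHBA* and *FST*, which ranked the pools nearly as *AMH* did, were not among its 5 nearest genes.

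The rest of the pathway was followed in 69 listed genes, of which 31 had a probe set and 15 varied. At the threshold 1 of the 15 rose and 1 fell, and at an adjusted p under 0.05, 7 were higher and 3 lower. Fitted over as many probe sets of highest variance as the methods call informative, *TGFBR2*, *TGFB2* and *SMAD2* also passed (limma, adjusted p = 3.10e-05, 5.92e-05 and 9.96e-05). Over all probe sets 0.974% rose and 4.81% fell at the threshold, and 15.5% were higher and 15.0% lower at 0.05. Among the 9460 probe sets that varied, 14.5% were called at the threshold and 65.7% at 0.05 in either direction.

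Of 14 receptors and co-receptors, 10 had a probe set and 5 varied, with a median difference of 0.38. *ACVR2B*, a type II receptor of activins, had 9.54, 9.76, 9.58, 8.95 and 9.82 in IVM oocytes. It had 7.61, 7.55, 7.50, 7.76 and 7.25 in immature oocytes. The groups did not overlap, and *ACVR2B* rose by 2.0 (SE 0.17; limma, adjusted p = 5.68e-05). The adjusted p was 1.01e-05 to 3.44e-04 when each array was left out in turn, and was past the threshold only without IVM replicate 4. With arrays of equal number as a block it was 0.00789, and with immature replicates 4 and 5 alone 0.0120. *TGFBR2*, the type II receptor of TGF-β, had a difference of 2.08 (limma, adjusted p = 6.05e-04), with a second probe set that did not vary. *ACVRL1* had -0.29, *BMPR1A*, a type I receptor of BMPs and AMH, 0.38, and *ACVR1* 0.11 (limma, adjusted p = 0.0151, 0.407 and 0.522). *ACVR2A*, the other type II activin receptor, did not vary, and *ACVR1B*, *ACVR1C*, *AMHR2* and *TGFBR3* had no probe set by the same rule.

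Of 16 SMADs and nuclear partners, 6 had a probe set and 5 varied, with a median difference of 0.73. *SMAD3*, which carries the signal of activins and TGF-β to the nucleus, had 6.74, 6.56, 5.98, 5.96 and 6.76 in IVM oocytes. It had 11.75, 11.52, 11.37, 11.48 and 11.60 in immature oocytes. The groups lay far apart, and the pools of a group differed little. *SMAD3* fell by 5.15 on the log2 scale (SE 0.19; limma, adjusted p = 4.54e-07) and stayed past the threshold without any single array (adjusted p 1.59e-06 to 5.62e-06), but not with arrays of equal number as a block (4.51e-04) or with immature replicates 4 and 5 alone (7.65e-04). A second probe set of *SMAD3* did not vary. *SMAD2*, the other activin SMAD, had a difference of -1.04, the common partner *SMAD4* of 2.41, the corepressor *TGIF1* of 0.94 and the BMP-type *SMAD5* of 0.73 (limma, adjusted p = 8.33e-04, 0.00607, 6.76e-04 and 0.0381).

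Of 17 antagonists and modulators other than *FST*, 4 had a probe set and 2 varied, neither past the threshold. These were the follistatin-like *FSTL3*, which also binds activin (0.70; limma, adjusted p = 0.114), and the pseudoreceptor *BAMBI* (0.97; limma, adjusted p = 0.182). Of 17 other ligands of the family, 9 had a probe set and 3 varied, *TGFB2* (2.54), *BMP2* (2.52) and *BMP4* (0.42), with adjusted p = 0.00111, 0.0211 and 0.0611 from limma. Of 5 enzymes that cut the precursors of these ligands, *FURIN* and *PCSK7* had a probe set, and neither varied.

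**Figure D5:**
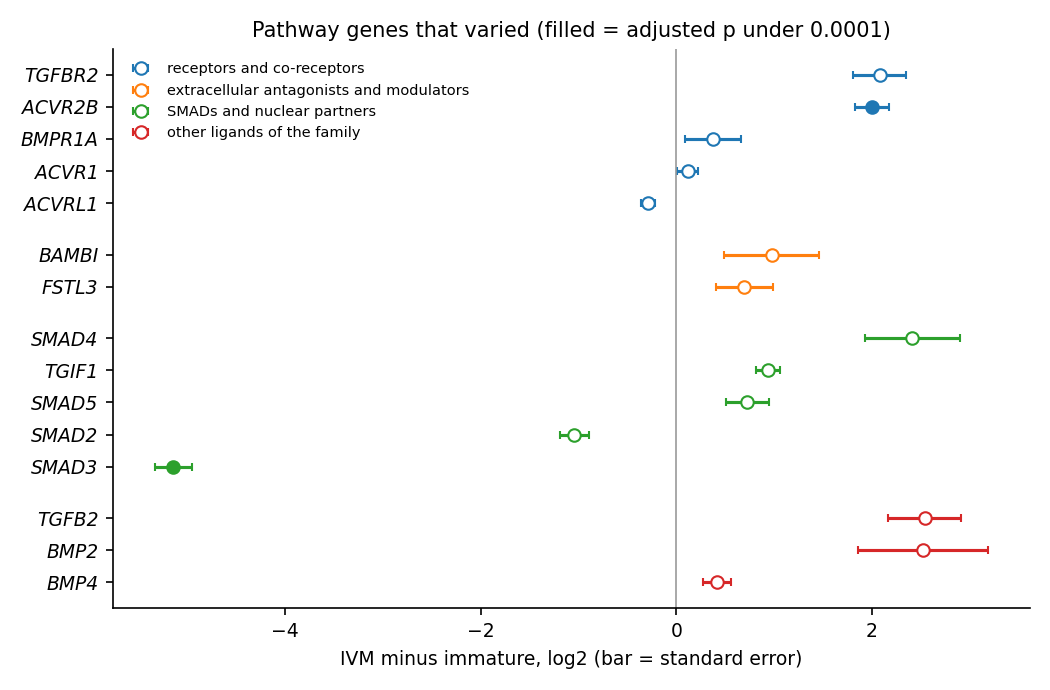
Difference of IVM minus immature oocytes on the log2 scale (horizontal axis, bars give the standard error) for the 15 pathway genes that varied, grouped into receptors, antagonists, SMADs and other ligands, with filled symbols for an adjusted p under 0.0001. *SMAD3*, at -5.15, and *ACVR2B*, at 2.0, are the filled symbols.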

How the data were processed

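In all, 5 pools each of IVM and immature oocytes were measured on Affymetrix bovine arrays. The deposited values are log2 values, which the authors obtained by quantifying the arrays with GCOS and summarising probes with FARMS after quantile normalization. The 112 probe sets for controls were not tested. Of the other 24016 probe sets, 13292 had a single gene symbol, 86 had several and 10638 were unnamed here. Symbols came from the annotation of the platform, updated through gene identifiers (13263) or accessions (2), and 27 were kept as given. FARMS gave 14556 probe sets nearly the same value on all arrays, a span under 0.01, and the other 9460 are called varying.

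Differences (IVM minus immature) were tested in R 4.3.3 by limma 3.58.1 (lmFit, eBayes). The p-values were adjusted over all 24016 probe sets by Benjamini-Hochberg, and a call needed an adjusted p below 0.0001, as the methods of the study set it. The script was tested on simulated data. Single values were tested with two-sided exact permutation tests, which have 126 distinct splits of the arrays (Python 3.11.15, numpy 2.4.6, pandas 2.3.3, scipy 1.17.1, matplotlib 3.10.9). A gene with more than 1 probe set was represented by the brightest on average. Named were the member genes, the pathway genes past the threshold and those with the largest differences of each list, markers that moved with a member, and the 5 nearest profiles. Other pathway genes that varied were added for completeness. The member genes, lists and tests were chosen with earlier results of these data known. Alternatives were the replicate number as a block, other sets of probe sets, eBayes with trend, array weights, other centring, fewer immature arrays and leaving out each array. Precision is limited by the 10 arrays.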

Additional observations from a re-analysis of the deposited data

Results flagged for a closer look

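Of 20 sets of 5 arrays examined (the 4 genes and the 6 within-array differences, in each group), 3 held an array whose gap to the nearest other, over the range of the set, was above Dixon's critical value of 0.71 for 5 samples. Chance flags about 1 in 20 such sets. For *FST* minus *INHBA* in immature oocytes the ratio was 0.741, with replicate 3 at -0.44 and the other arrays at 0.39 to 0.67. For *FST* minus *AMH* in immature oocytes it was 0.715, with replicate 2 at 0.96 and the others at 3.54 to 4.57. For *INHA* minus *AMH* in immature oocytes it was 0.791, with replicate 2 at 1.30 and the others at 3.50 to 4.08. No set of IVM arrays was above the critical value.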

How the results depend on the processing

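In every setting 0 of 4 genes passed its threshold. Over all probe sets, the count of 1389 was 0 with the replicate number as a block, 2373 over varying probe sets only, 2460 over as many probe sets of highest variance as the methods call informative, 7334 at an adjusted p under 0.05, 18826 when centred on the poly-A controls (165 higher, 18661 lower), 2215 when centred on the median of varying probe sets, 4 with immature replicates 4 and 5 only, and 780 to 1415 without single arrays. Of 80 alternatives for *INHA*, *INHBA*, *FST* and *AMH*, 79 kept direction and side of the threshold. *INHBA* turned to 0.12 without immature replicate 3 (range without single arrays -1.45 to 0.12). The 79 are no measure of robustness. The setting at an adjusted p under 0.05 repeats the main fit, and the exact permutation tests were judged at 0.05. With the block, or immature replicates 4 and 5 only, hardly any probe set could change side, since 0 and 4 of all passed. Without single arrays, *INHA* ranged from -1.69 to -0.55, *FST* from -2.70 to -1.35 and *AMH* from -0.66 to -0.17. Centring on the poly-A controls, which lowers every difference by 0.94, gave -1.85 for *INHA*, -1.46 for *INHBA*, -2.73 for *FST* and -1.32 for *AMH* (limma, adjusted p = 0.0319, 0.174, 0.00875 and 0.00136). Of 171 alternatives for 9 pathway and marker genes, 114 kept their side of the threshold, 46 lost the call and 11 gained it, all in the same direction. *TGFBR2* and *TGFB2* also passed over varying probe sets, with array weights and centred on the median of varying probe sets. The block left the gene differences as they were (limma, adjusted p = 0.555, 0.822, 0.329 and 0.329 for *INHA*, *INHBA*, *FST* and *AMH*). Deviations of equal-numbered arrays had r = 0.149, -0.343, 0.0818, 0.676 and 0.352. The labels do not give the day, so the numbers were not taken as pairs in the main fit. These correlations cannot show that no day was shared, because other differences between pools enter them too. Alternatives for the within-array pairs were chosen after seeing the data. *FST* minus *INHA* kept -0.88 and *FST* minus *INHBA* -1.27 with the block (exact permutation p = 0.0625, the smallest possible), and gave -0.99 and -1.46 with immature replicates 4 and 5 only (0.0952, the smallest possible). Without single arrays they ranged from -1.01 to -0.80 and from -1.46 to -1.14. *INHBA* minus *AMH*, which ranged from -0.78 to 0.32, turned to 0.01 without IVM replicate 1, 0.22 without IVM replicate 5, 0.32 without immature replicate 3 and 0.05 without immature replicate 4. The cause of these changes was not tested.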
